A study of Mus musculus with 8 samples.

Results

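The genes described here carry fructose and glucose into liver cells, commit them to metabolism and pass the state of carbohydrate supply on to transcription. They are the sugar transporter genes *Slc2a2*, *Slc2a5* and *Slc2a8*, the ketohexokinase gene *Khk*, the gene *Gckr*, which encodes a regulator of glucose phosphorylation, the gene *Mlxipl*, which encodes the transcription factor ChREBP, and the ChREBP targets *Pklr* and *Txnip*. They were chosen by name for these functions, and their symbols were looked up in the GRCm38 mouse annotation. All 8 were among the 46078 gene identifiers of the deposited counts, and all 8 were among the 13856 genes with enough counts to be tested.

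RNA-seq of poly(A)-enriched RNA was performed on livers of 4 LWT and 4 LΔRbfox2 male mice fed a control chow diet (CD), with 1 library per liver. Mice of both genotypes carried 2 loxP-flanked alleles of the splicing factor gene *Rbfox2*, and only LΔRbfox2 mice carried a Cre recombinase gene driven by the albumin promoter, which is active in hepatocytes, so that other cell types of the liver can keep *Rbfox2*. Mice were placed on the diet at 8 weeks of age and fed it for 12 weeks according to the labels, and all livers were taken after 16 h of fasting. Total counts ranged from 37482458 to 56177588 per liver, with a median of 42589090. The comparison asks whether loss of RBFOX2 from hepatocytes is accompanied by a change in the mRNA of these genes.

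Hepatocytes take up glucose through GLUT2, the product of *Slc2a2*, and fructose through GLUT2 and related transporters. Ketohexokinase phosphorylates fructose, and the product of *Gckr* restrains the phosphorylation of glucose in the fasted state. ChREBP responds to phosphorylated sugars, binds DNA together with its partner MLX at carbohydrate response elements (ChoREs), and raises transcription of genes for glycolysis, fructose breakdown and lipid synthesis, and of *Txnip*, whose product restrains glucose uptake.

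*Rbfox2*, the targeted gene, was read in every liver to check the labels. It lies at chr15:77078990-77307004 on the minus strand, and its normalised level, in TMM-scaled CPM (counts scaled to library size), was 17.1, 10.4, 11.4 and 18.3 in LWT replicates 1 to 4 and 4.61, 6.09, 2.24 and 3.19 in LΔRbfox2 replicates 1 to 4. Every LΔRbfox2 liver was below every LWT liver (exact permutation, two-sided, p = 0.0286, which no split of 4 against 4 livers can go below). Its log2 fold change of −1.82 (standard error 0.32) had a p of 0.504 after Benjamini-Hochberg adjustment over all genes tested in the edgeR quasi-likelihood test. Other annotated genes lie within the *Rbfox2* gene, but none shares exon bases with it.

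At an adjusted p of at most 0.05, 0 of the 8 genes were called, against a background of 0.0% of all genes tested in the edgeR test, in limma-voom also 0 genes, and 0.0836% in DESeq2 (10 of 11963 genes given an adjusted p). At an unadjusted p under 0.05, edgeR had 1356 genes and limma-voom 979, and with single livers left out the edgeR number ranged from 404 (without LΔRbfox2 replicate 4) to 3475 (without LΔRbfox2 replicate 2). Of the 8 genes, 0 were among those higher in LΔRbfox2 livers at that level (7.95% of all genes tested) and 0 among those lower (1.83%). None of the 8 had livers that separated by genotype, which 2.28% of all genes tested did. The log2 fold changes ran from −0.77 for *Mlxipl* to 0.49 for *Khk*, with 2 positive and 6 negative, including *Slc2a2*, whose sign turned with the processing, and a median of −0.14 (−0.21 to −0.069 with single livers left out) beside −0.015 over all genes tested.

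**Figure D1:**
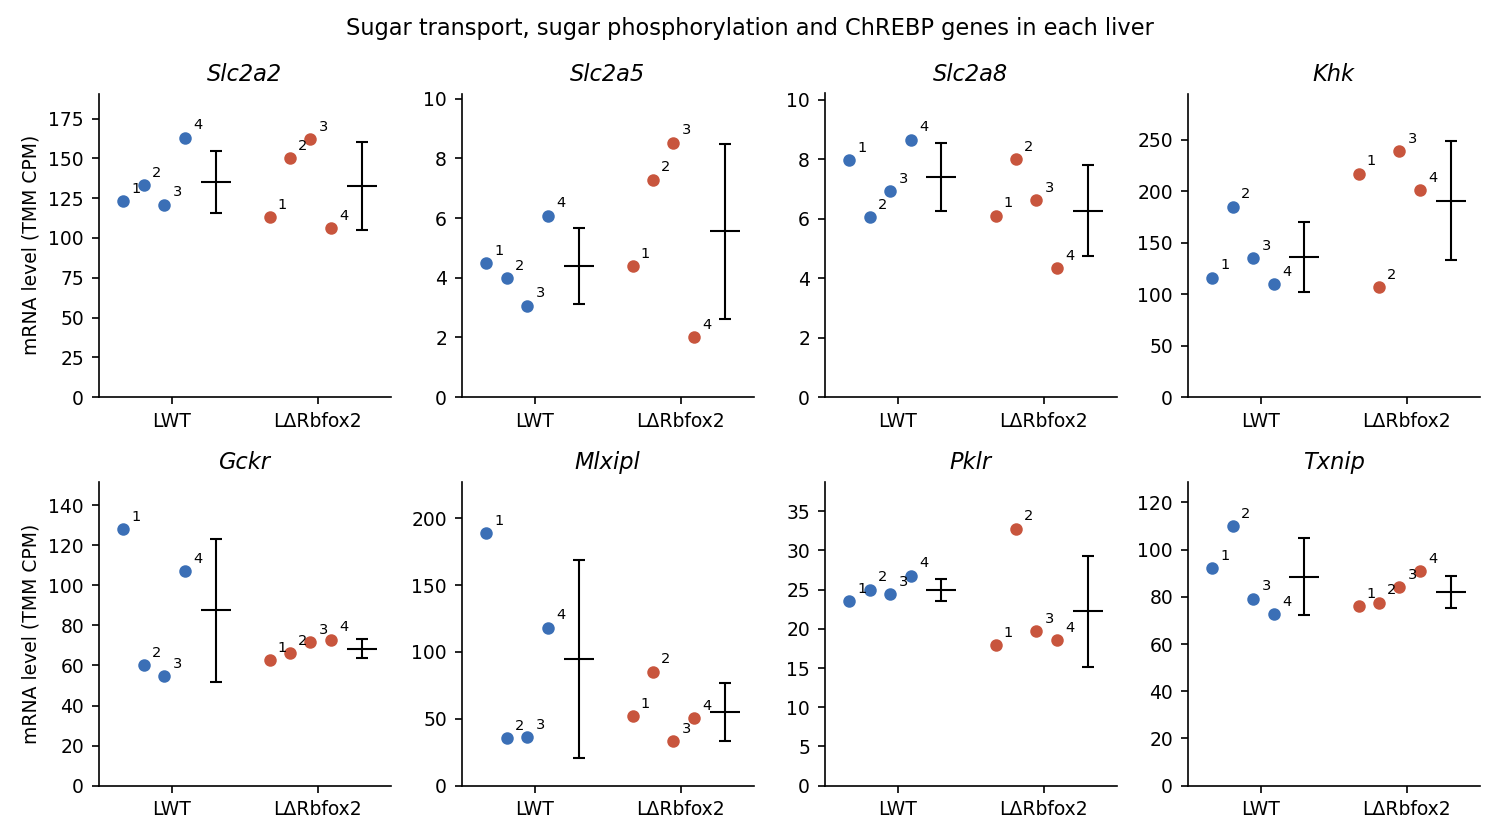
Level of each gene in TMM-scaled CPM in each liver, with points numbered by replicate and the bar giving the mean ± SD of 4 livers per genotype. The genotypes overlap in all 8 panels. The points of *Mlxipl* and *Gckr* are spread wider in LWT than in LΔRbfox2 livers, from 35.5 to 189 CPM and from 54.8 to 128 CPM in LWT.

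Of the transporters, *Slc2a2* (chr3:28697903-28731359, plus strand) encodes GLUT2, the main glucose carrier of the hepatocyte membrane. Its level was 123, 133, 121 and 163 CPM in LWT livers and 113, 150, 162 and 106 CPM in LΔRbfox2 livers. The highest LWT liver, replicate 4, stood beside LΔRbfox2 replicates 2 and 3, the other LΔRbfox2 livers were the lowest of the series, and the ranges overlapped almost entirely. The fitted log2 fold change was −0.022 (95% interval −0.47 to 0.40 from limma-voom; Benjamini-Hochberg adjusted p = 0.965 by the edgeR quasi-likelihood test, as for all adjusted p given from edgeR). The sign turned when each library was corrected for gene length, to 0.072.

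*Slc2a5* (chr4:150119283-150144169, plus strand) encodes GLUT5, the fructose-specific carrier that is abundant in the intestine and scarce in the liver. It was read at 4.49, 3.98, 3.06 and 6.08 CPM in LWT livers and at 4.39, 7.29, 8.52 and 2.01 CPM in LΔRbfox2 livers. LΔRbfox2 livers held both the highest and the lowest value of the series, replicates 3 and 4, and LWT livers lay between them. A log2 fold change of 0.34 (−0.71 to 1.16; edgeR quasi-likelihood, Benjamini-Hochberg adjusted p = 0.71) became 0.041 without LΔRbfox2 replicate 3.

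*Slc2a8* (chr2:32972990-32982083, minus strand) encodes GLUT8, a transporter of intracellular membranes. Its level was 7.97, 6.05, 6.93 and 8.66 CPM in LWT livers and 6.1, 8.01, 6.63 and 4.33 CPM in LΔRbfox2 livers. LΔRbfox2 replicate 4 was the lowest liver, as it was for *Slc2a2* and *Slc2a5*, and the remaining livers of both genotypes were intermixed. Its log2 fold change was −0.24 (−0.73 to 0.26; edgeR quasi-likelihood, Benjamini-Hochberg adjusted p = 0.654). That value became −0.092 without LΔRbfox2 replicate 4 and −0.38 without LΔRbfox2 replicate 2. In the SLC2 sugar transporter family 6 of 12 genes were tested and 0 passed the adjusted threshold. Of these genes, 0 were higher and 0 lower at an unadjusted p under 0.05, beside 7.95% and 1.83% of all genes tested. The family had a median log2 fold change of −0.093, which was −0.023 after correction for gene length and −0.0077 without LΔRbfox2 replicate 4. *Slc2a4*, the insulin-responsive muscle and fat transporter gene, was not tested, and its level was at most 0.114 CPM in any liver.

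*Khk* (chr5:30921431-30931248, plus strand) commits fructose to breakdown in the liver, and its product works without the feedback that limits glucose phosphorylation. *Khk* was read at 116, 185, 135 and 110 CPM in LWT livers and at 217, 107, 239 and 201 CPM in LΔRbfox2 livers. The values of 3 LΔRbfox2 livers were above all LWT livers, but LΔRbfox2 replicate 2 was the lowest liver of the series, so the genotypes overlapped. By total counts alone, without TMM factors, LΔRbfox2 replicates 3 and 4 would lie below LWT replicate 2. The mean was 136 ± 34.0 CPM in LWT and 191 ± 58.0 CPM in LΔRbfox2 livers (SD, n = 4 each). The log2 fold change of 0.49 had an interval of −0.15 to 1.07 and did not pass the test (edgeR quasi-likelihood, Benjamini-Hochberg adjusted p = 0.532). It was 0.24 when libraries were corrected for gene length and ranged from 0.33 to 0.68 with single livers left out. Gene counts do not separate the liver-type and the ubiquitous splice form of *Khk*, so the share of each was not measured.

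*Tkfc*, which encodes the triose kinase that acts after ketohexokinase, was read beside it and was at 92.5, 79.8, 92.1 and 87.7 CPM in LWT livers and at 92.9, 134, 61.5 and 73.9 CPM in LΔRbfox2 livers. LWT livers were close together for *Tkfc* and LΔRbfox2 livers spread around them on both sides, with a log2 fold change of 0.042 that turned to −0.024 in limma-voom. Over the 8 genes of fructose breakdown, all tested, 0 passed the adjusted threshold. Of these, 0 were higher and 0 lower at an unadjusted p under 0.05, beside 7.95% and 1.83% of all genes tested. Their median log2 fold change was 0.18, with 0.091 after correction for gene length and 0.12 to 0.3 with single livers left out.

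*Gckr* (chr5:31297443-31327314, plus strand) was at 128, 60.2, 54.8 and 107 CPM in LWT livers and at 62.7, 66, 71.6 and 72.9 CPM in LΔRbfox2 livers. LWT livers fell into a high pair, replicates 1 and 4, and a low pair, replicates 2 and 3, and all LΔRbfox2 livers lay between the pairs, close together. The mean was 87.5 ± 35.8 CPM in LWT and 68.3 ± 4.77 CPM in LΔRbfox2 livers (SD, n = 4 each). For *Gckr* the log2 fold change was −0.36 (−0.87 to 0.34; edgeR quasi-likelihood, Benjamini-Hochberg adjusted p = 0.596), and −0.14 without LWT replicate 1.

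Of 24 hexokinase and glycolysis genes 22 were tested, 0 passed the adjusted threshold, and the median log2 fold change was −0.16. At an unadjusted p under 0.05 (7.95% of all genes tested higher, 1.83% lower), 0 of them were higher and 1 was lower, *Hk3*, which encodes a hexokinase of blood cells and was at or below 1.45 CPM in every liver.

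**Figure D2:**
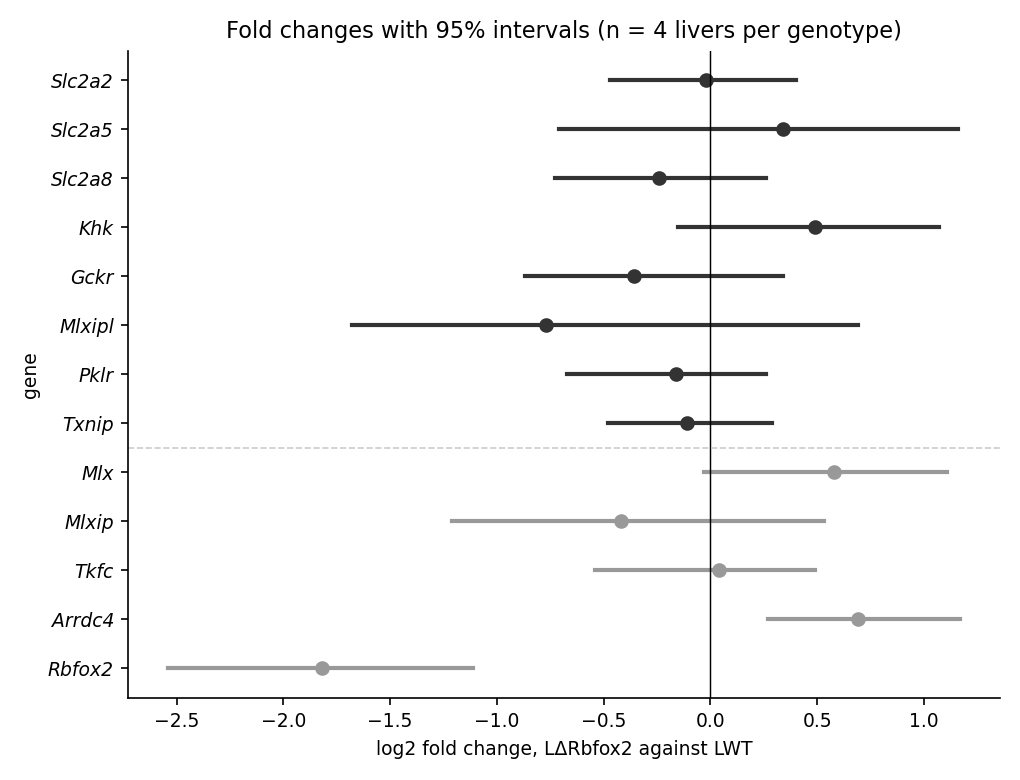
Log2 fold change of LΔRbfox2 against LWT livers (points, edgeR) with 95% intervals (lines, limma-voom; n = 4 livers per genotype) for the 8 genes, in black, and for direct partners and *Rbfox2*, in grey. The intervals of all 8 genes include 0, and *Mlxipl* has the widest of them, from −1.68 to 0.69.

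*Mlxipl* (chr5:135089890-135138382, plus strand) encodes ChREBP, which is transcribed from a downstream start as the long alpha form and from an upstream start as the shorter, more active beta form, a form that ChREBP itself induces. The 250 bases before the upstream start, at chr5:135089640-135089889 on the plus strand of GRCm38.p6 (RefSeq), are shown because ChREBP acts on its own gene there. The capitals mark an E-box, CACGTG, from 98 to 93 bases before the start.

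Mlxipl upstream start: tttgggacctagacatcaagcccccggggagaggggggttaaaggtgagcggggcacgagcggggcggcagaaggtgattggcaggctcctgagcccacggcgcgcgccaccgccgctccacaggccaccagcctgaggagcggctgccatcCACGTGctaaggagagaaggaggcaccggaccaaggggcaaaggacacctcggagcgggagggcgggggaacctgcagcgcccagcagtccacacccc

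*Mlxipl* was read at 189, 35.5, 36.4 and 118 CPM in LWT livers and at 52.2, 85.2, 33.2 and 50.5 CPM in LΔRbfox2 livers. LWT replicates 1 and 4 were the highest livers of the series and LWT replicates 2 and 3 were among the lowest, so LWT livers alone spanned the LΔRbfox2 range except for LΔRbfox2 replicate 3. The highest liver was 5.68 times the lowest, and the mean was 94.5 ± 73.6 CPM in LWT and 55.3 ± 21.7 CPM in LΔRbfox2 livers (SD, n = 4 each). The log2 fold change of −0.77 (in limma-voom −0.50, with an interval of −1.68 to 0.69) did not pass the test, with a Benjamini-Hochberg adjusted p of 0.573 by edgeR quasi-likelihood and p = 0.371 by exact two-sided permutation. It rested largely on 1 liver, being −0.21 without LWT replicate 1. The counts do not tell the alpha from the beta form. *Mlxipl* shares 235 exon bases (4.24% of its exons) with the antisense gene *Gm43500*, which was at most 0.138 CPM in any liver.

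The spread of *Mlxipl* went with other measures of the same libraries. The main axis of variation among all genes tested (first principal component, 54.1% of the variance) placed LWT replicates 1 to 4 at −59.44, 27.42, 3.97 and −54.58 and LΔRbfox2 replicates 1 to 4 at 15.84, −35.89, 46.66 and 56.02. The 3 livers with negative positions were the 3 with the most *Mlxipl*. A contrast of long with short genes in each library, the median log2 deviation of genes with at least 6465 exon bases minus that of genes with at most 2369, was 0.61, −0.32, 0.13 and 0.54 in LWT livers and −0.14, 0.44, −0.65 and −0.59 in LΔRbfox2 livers. It was highest in the same 3 livers. With a correction for gene length in each library, the log2 fold change of *Mlxipl* was −0.67.

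*Mlxipl* mRNA is known in mouse liver for its retention in the nucleus, and other RNAs known from hepatocyte nuclei were looked at after these values were seen. *Malat1*, a nuclear long noncoding RNA, was at 833, 37.6, 26.0 and 561 CPM in LWT livers and at 101, 237, 49.7 and 35.8 CPM in LΔRbfox2 livers. *Neat1*, which builds nuclear paraspeckles, was at 556, 23.2, 12.8 and 155 CPM in LWT livers and at 24.1, 215, 58.0 and 14.1 CPM in LΔRbfox2 livers. *Nlrp6*, another mRNA known for nuclear retention, was at 144, 42.9, 46.1 and 115 CPM in LWT livers and at 49.2, 79.4, 38.4 and 34.2 CPM in LΔRbfox2 livers. For all 3 RNAs the highest livers were LWT replicates 1 and 4 and LΔRbfox2 replicate 2, as for *Mlxipl*, and the genotypes overlapped. Not every mRNA with a known nuclear share varied in this way, since *Gcgr*, the glucagon receptor gene, stayed between 118 and 183 CPM over the 8 livers. *Khk* lay on the other side, with its 3 lowest values in the 3 livers that were highest for *Mlxipl*. The part of these library differences in the results was not tested, and a change in transcript amount and a change in which RNA was recovered cannot be told apart here.

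**Figure D3:**
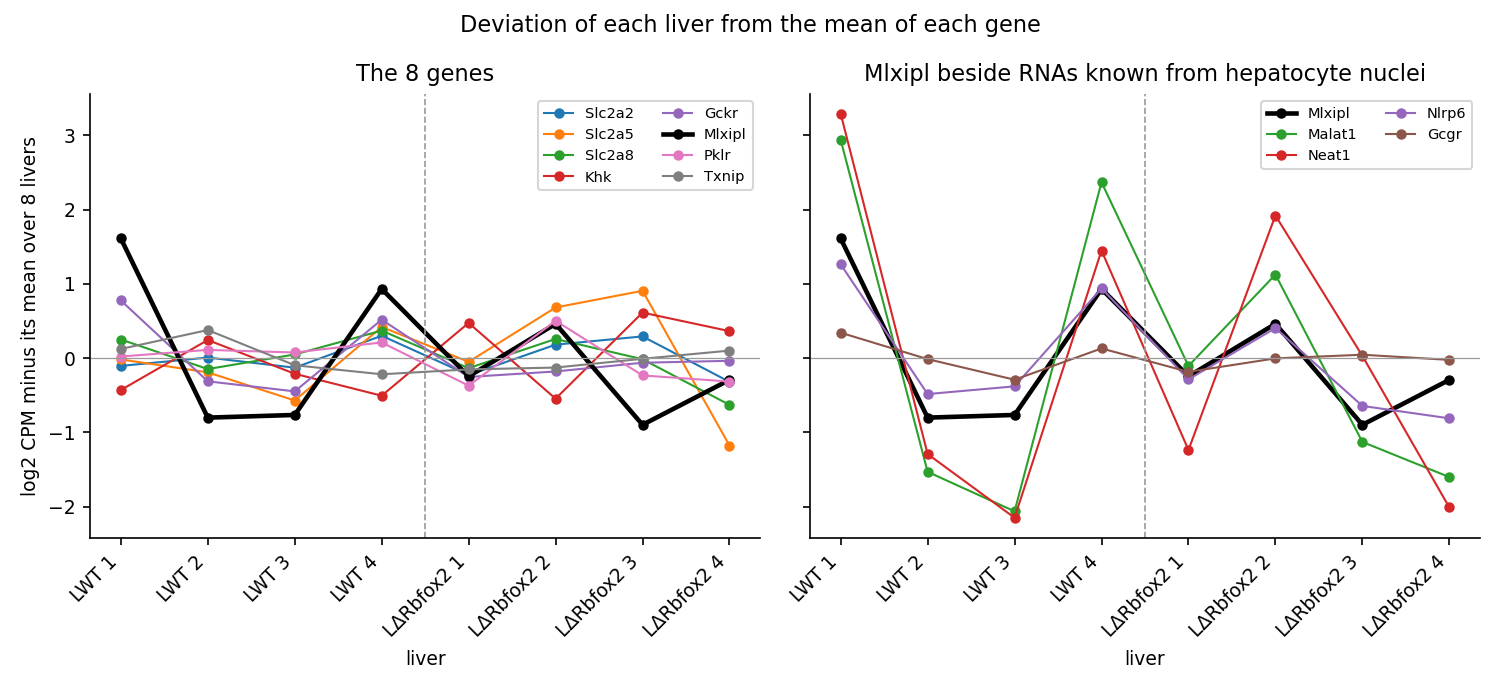
Log2 CPM of each gene in each liver minus its mean over the 8 livers, for the 8 genes (left) and for *Mlxipl* beside RNAs known from hepatocyte nuclei (right), with the dashed line between LWT and LΔRbfox2 livers. *Mlxipl* (black), *Malat1*, *Neat1* and *Nlrp6* are highest in LWT replicates 1 and 4 and LΔRbfox2 replicate 2, whereas *Gcgr*, from 118 to 183 CPM, varies little.

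ChREBP binds DNA as a dimer with MLX. *Mlx* was read at 12.7, 21, 19.5 and 15.5 CPM in LWT livers and at 22.2, 17.2, 26.6 and 36.6 CPM in LΔRbfox2 livers. LΔRbfox2 replicates 1, 3 and 4 were above all LWT livers and LΔRbfox2 replicate 2 lay among them, and the 3 lowest livers were again LWT replicates 1 and 4 and LΔRbfox2 replicate 2. By total counts alone, without TMM factors, LΔRbfox2 replicate 3 would lie below LWT replicate 2. Between genotypes the log2 fold change of *Mlx* was 0.58 (−0.03 to 1.11; edgeR quasi-likelihood, Benjamini-Hochberg adjusted p = 0.504), and it was 0.36 after correction for gene length and 0.36 without LΔRbfox2 replicate 4. *Mlxip*, the paralogue of *Mlxipl* (MondoA), was at 7.55, 2.67, 3.56 and 5.73 CPM in LWT livers and at 3.81, 5.82, 2.38 and 2.45 CPM in LΔRbfox2 livers. Its 3 highest livers were those of *Mlxipl*, and its log2 fold change of −0.42 had an adjusted p of 0.651 (edgeR quasi-likelihood, Benjamini-Hochberg) and was −0.27 after correction for gene length, −0.15 without LWT replicate 1 and −0.75 without LΔRbfox2 replicate 2. Of both genes, 1 (*Mlx*) was higher and 0 were lower at an unadjusted p under 0.05 from edgeR, where 7.95% of all genes tested were higher and 1.83% lower.

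The ChREBP targets *Pklr* and *Txnip* carry ChoREs, pairs of E-box-like motifs spaced by 5 bases, near their starts. The 250 bases before the liver-type start of *Pklr* (chr3:89136373-89136622, plus strand) and before the start of *Txnip* (chr3:96557707-96557956, plus strand) are shown with the matches in capitals, together with the E-box before *Arrdc4* (chr7:68749239-68749488, minus strand), a related target described below. All are RefSeq windows of GRCm38.p6.

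Pklr liver-type start: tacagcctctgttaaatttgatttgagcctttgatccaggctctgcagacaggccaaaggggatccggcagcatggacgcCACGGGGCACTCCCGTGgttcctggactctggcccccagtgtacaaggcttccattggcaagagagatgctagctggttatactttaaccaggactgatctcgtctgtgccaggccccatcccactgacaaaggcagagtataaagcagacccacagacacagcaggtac
Txnip: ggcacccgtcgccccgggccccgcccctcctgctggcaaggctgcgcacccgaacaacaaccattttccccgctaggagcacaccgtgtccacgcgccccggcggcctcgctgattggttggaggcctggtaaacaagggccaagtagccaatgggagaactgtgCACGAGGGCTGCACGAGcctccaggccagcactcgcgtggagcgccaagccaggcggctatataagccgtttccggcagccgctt
Arrdc4: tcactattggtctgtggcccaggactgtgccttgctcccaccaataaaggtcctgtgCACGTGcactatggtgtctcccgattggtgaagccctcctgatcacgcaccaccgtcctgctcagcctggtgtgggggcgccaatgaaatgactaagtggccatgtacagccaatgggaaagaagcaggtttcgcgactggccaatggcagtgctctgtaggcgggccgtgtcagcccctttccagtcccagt

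The match in *Pklr*, CACGGGGCACTCCCGTG, lies 170 to 154 bases before the start and has the inverted form CACGNGNNNNNCNCGTG, which 15 of 32851 RefSeq promoter windows of 300 bases hold on either strand (0.0457%). The match in *Txnip*, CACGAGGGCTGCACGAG, lies 85 to 69 bases before the start and has the tandem form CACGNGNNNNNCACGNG, held by 16 windows (0.0487%), a form that was searched after this sequence was seen. The E-box CACGTG is held by 2349 windows (7.15%), among them those of *Khk*, *Mlx*, *Arrdc4* and the upstream start of *Mlxipl*. Of the 10 windows of the 8 genes, 6 held none of these motifs. A ChoRE can contain an E-box, but neither of the printed ChoREs does. The matches describe these windows only, and binding was not measured.

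*Pklr* (chr3:89136142-89146784, plus strand) encodes the liver and red cell pyruvate kinase, the last step of glycolysis. It was at 23.5, 25, 24.4 and 26.8 CPM in LWT livers and at 17.9, 32.8, 19.7 and 18.6 CPM in LΔRbfox2 livers. The LWT livers were close together, LΔRbfox2 replicates 1, 3 and 4 lay below all of them and LΔRbfox2 replicate 2 above all of them. Over all livers the log2 fold change was −0.16 (−0.67 to 0.26; edgeR quasi-likelihood, Benjamini-Hochberg adjusted p = 0.73), and −0.41 without LΔRbfox2 replicate 2, which did not pass the test either. *Pklr* shares 711 exon bases (22% of its exons) with *Hcn3* on the opposite strand, whose level was at most 0.0914 CPM in any liver.

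*Txnip* (chr3:96557957-96561883, plus strand) encodes an alpha-arrestin that binds thioredoxin and reduces glucose uptake. It was at 92.2, 110, 79.2 and 72.8 CPM in LWT livers and at 76.2, 77.5, 84.1 and 90.8 CPM in LΔRbfox2 livers. All LΔRbfox2 livers lay within the LWT range, and the highest liver was 1.51 times the lowest. Its log2 fold change was −0.11 (−0.48 to 0.29; edgeR quasi-likelihood, Benjamini-Hochberg adjusted p = 0.781), and the sign turned, to 0.020, without LWT replicate 2. The antisense gene *Gm15441* shares 606 exon bases with *Txnip* (19.4% of the *Txnip* exons), and since the alignment was set for stranded libraries but the strand setting of the counting was not stated, reads in the overlap are uncertain. *Gm15441* was at 10.1, 38.7, 25.5 and 12.9 CPM in LWT livers and at 4.87, 25.8, 5.73 and 19.2 CPM in LΔRbfox2 livers. It varied far more between livers than *Txnip*, with overlapping genotypes (log2 fold change −0.65, edgeR quasi-likelihood, Benjamini-Hochberg adjusted p = 0.645).

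*Arrdc4*, the alpha-arrestin gene closest to *Txnip* in function and also a target of ChREBP and its paralogue, differed from it in pattern. It was at 8.88, 7.65, 5.45 and 5.43 CPM in LWT livers and at 10.4, 11.2, 12.4 and 10.2 CPM in LΔRbfox2 livers. All LΔRbfox2 livers were above all LWT livers (exact two-sided permutation, p = 0.0286), which 2.28% of all genes tested matched in either direction. This separation rested on the TMM factors of LΔRbfox2 replicates 3 and 4, which had 426 *Arrdc4* counts of 47506181 and 329 of 41646283. LWT replicate 1 had 340 counts of 37482458, more per total count than either. The log2 fold change of *Arrdc4* was 0.69 (0.27 to 1.17), and the edgeR quasi-likelihood p, 0.00693 before and 0.504 after Benjamini-Hochberg adjustment, did not pass the threshold. Over all alternatives, none of which scaled by total counts alone, it stayed between 0.59 and 0.82. The difference between *Arrdc4* and *Txnip* itself was not tested. *Arrdc3*, a further alpha-arrestin gene, was at 59.1, 62, 74.8 and 36.7 CPM in LWT livers and at 114, 46.5, 96.8 and 187 CPM in LΔRbfox2 livers. LΔRbfox2 replicate 2 lay within the LWT range and the other LΔRbfox2 livers above it, with a log2 fold change of 0.93 (Benjamini-Hochberg adjusted p = 0.504, edgeR) that was 0.56 without LΔRbfox2 replicate 4. By total counts alone, without TMM factors, LΔRbfox2 replicate 3 would lie below LWT replicate 3.

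In the list of ChREBP targets, 19 of 20 genes were tested and 0 passed the adjusted threshold. At an unadjusted p under 0.05, 1 was higher (*Arrdc4*) and 0 were lower, beside 7.95% and 1.83% of all genes tested. Of the log2 fold changes 9 were positive and 10 negative, and their median of −0.022 turned to 0.014 after correction for gene length and ranged from −0.086 to 0.066 with single livers left out. *Scd1*, the stearoyl-CoA desaturase gene and the most abundant of the list by CPM, was at 1430, 2340, 1840 and 1330 CPM in LWT livers and at 3180, 838, 1690 and 1310 CPM in LΔRbfox2 livers. The highest and the lowest liver were both LΔRbfox2, and the sign of its log2 fold change of 0.013 turned under several settings. In the list of alpha-arrestins and the thioredoxin system, 9 of 10 genes were tested, 0 passed the adjusted threshold, 2 were higher (*Arrdc3* and *Arrdc4*) and 0 lower at an unadjusted p under 0.05 (over all genes tested, 7.95% and 1.83%), and the median was 0.11, with a sign that turned under some settings (−0.021 after correction for gene length). *Arrdc5* had 0 counts in every liver.

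**Figure D4:**
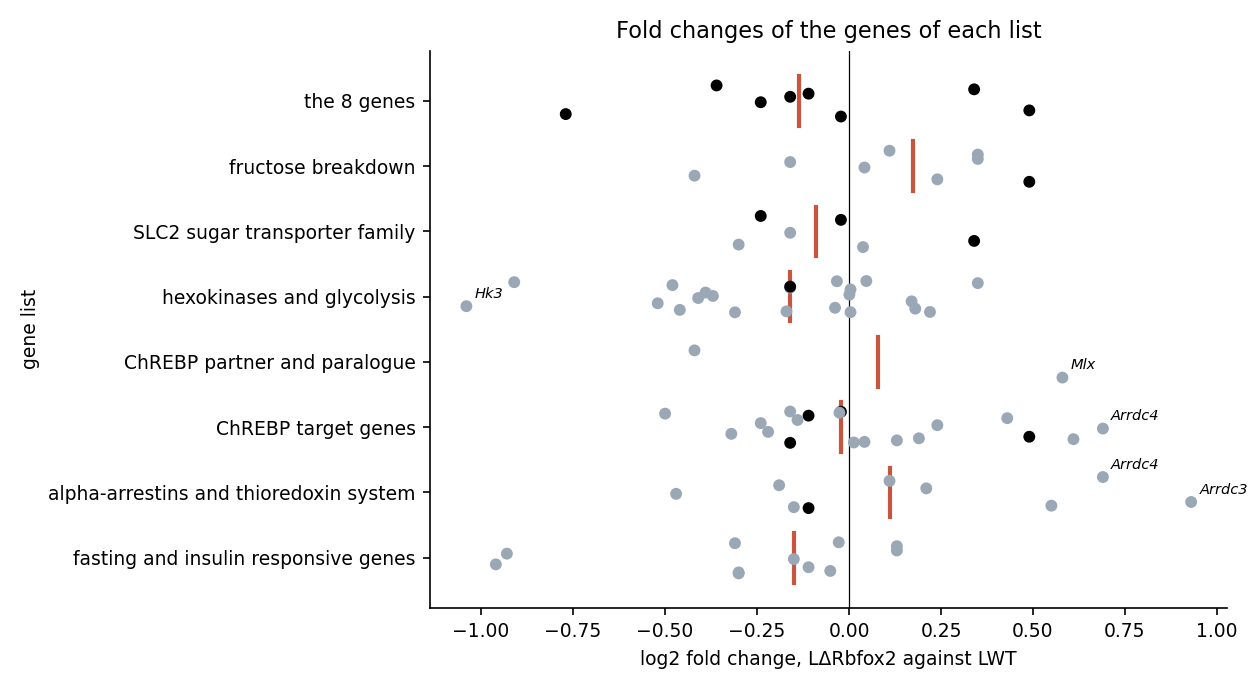
Log2 fold change of LΔRbfox2 against LWT livers for each tested gene of the lists, with the 8 genes in black, the other genes in grey and the median of each list as a red line. Points are shifted up or down only for legibility, genes with an unadjusted edgeR p under 0.05 are named, and the medians lie between −0.16 and 0.18.

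Fasting and insulin control the same steps, so their transcripts were read as well. Of 11 fasting and insulin responsive genes, all tested, 0 passed the adjusted threshold. At the unadjusted level of 0.05, 0 were higher and 0 lower, beside 7.95% and 1.83% of all genes tested. Their median log2 fold change was −0.15 (−0.3 to −0.049 with single livers left out), with 2 positive and 9 negative. *Srebf1*, whose product drives lipid synthesis under insulin, had the largest fold change of this list (−0.96, −1.68 to 0.27; Benjamini-Hochberg adjusted p = 0.511, edgeR). Its levels were 13.4, 13, 19.8 and 55.6 CPM in LWT livers and 12.3, 18.7, 10.4 and 10.9 CPM in LΔRbfox2 livers. LWT replicate 4 was far above the other livers, and without it the log2 fold change was −0.23.

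Between genes, levels were compared per kilobase of exon and scaled to the same sum in every liver. This scaling cancels the TMM factors, so it serves to order genes within a genotype and not to compare genotypes. In LWT livers the order was *Khk* at 135 ± 38.7, *Txnip* at 50.1 ± 9.46, *Slc2a2* at 41.7 ± 8.15, *Gckr* at 35.1 ± 12.3, *Mlxipl* at 29.0 ± 20.4, *Pklr* at 13.7 ± 1.76, *Slc2a8* at 4.08 ± 0.664 and *Slc2a5* at 2.29 ± 0.706 (SD, n = 4 each). *Khk* was above every other gene in all LWT livers and its mean was 59.1 times that of *Slc2a5*. *Txnip*, *Slc2a2*, *Gckr*, *Mlxipl* and *Pklr* could not be ranked against their neighbours, since the ranges of adjacent genes overlapped, while *Pklr* and *Slc2a8*, and *Slc2a8* and *Slc2a5*, were separate in all LWT livers. Among *Slc2a2*, *Slc2a8* and *Slc2a5*, GLUT2 mRNA was the most abundant on this scale and GLUT5 mRNA the least.

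**Figure D5:**
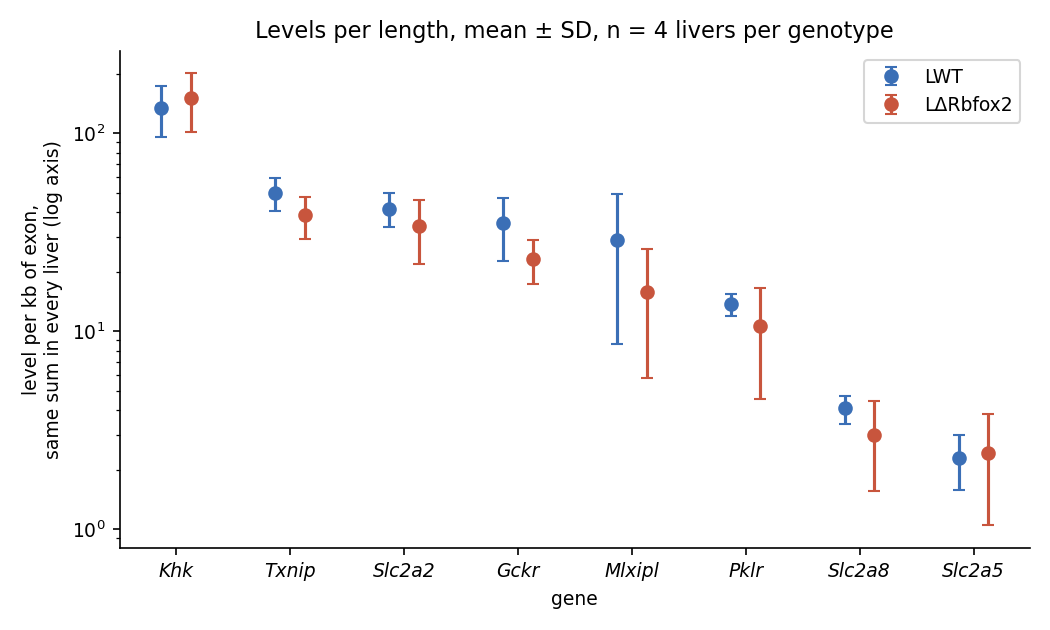
Level of each gene per kilobase of exon, scaled to the same sum in every liver, on a log axis, as mean ± SD of 4 LWT (blue) and 4 LΔRbfox2 (red) livers. *Khk* is highest, at 135 in LWT livers, *Slc2a8* and *Slc2a5* are lowest, at 4.08 and 2.29, and the bars of both genotypes overlap for each gene. The scaling cancels the TMM factors, so differences between genotypes here depart from the fitted ones. *Slc2a2* is at 41.7 in LWT and 34.1 in LΔRbfox2 livers, beside a fitted log2 fold change of −0.022.

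The genes differed in how much they varied between livers of a genotype. The residual SD of log2 CPM was 0.95 for *Mlxipl*, larger than for 96.1% of all genes tested, and 0.72 for *Slc2a5* (89.7%, and 62% without LΔRbfox2 replicate 4). It was 0.44 for *Khk* (60.2%, and 34.1% without LΔRbfox2 replicate 2), 0.43 for *Gckr* (59.1%), 0.31 for *Slc2a8* (34.2%, and 17.9% without LΔRbfox2 replicate 4), 0.29 for *Pklr* (31.6%), 0.26 for *Slc2a2* (24.4%) and 0.20 for *Txnip* (14.1%, and 5.5% without LWT replicate 2), against a median of 0.39 over all genes tested. The transcription factor gene thus had a larger SD than the targets *Pklr* and *Txnip*, a difference that was not tested. Without LΔRbfox2 replicate 2, *Pklr* was among the steadiest genes measured, with an SD larger than that of 0.6% of genes.

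The genes most like each of the 8 over the 8 livers were found by the root mean square difference of centred log2 CPM, which says nothing of shared function or control. For *Mlxipl* they were the predicted genes *Gm42785*, *Gm42669* and *Gm21750*, at 0.12, 0.137 and 0.143, beside a range of 2.51 for *Mlxipl* itself. For *Khk* they were *Ndufa13*, *Asgr1* and *Polr2l*, at 0.061, 0.09 and 0.091. The closest gene was *Dhdh* for *Slc2a2* (0.051), *Acss2* for *Slc2a8* (0.073), *Snx19* for *Pklr* (0.081), *Arhgap29* for *Txnip* (0.101), *Mrm1* for *Gckr* (0.124) and *Cabcoco1* for *Slc2a5* (0.168). *Acss2* encodes an acetyl-CoA synthetase.

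Whole liver holds several cell types, and in bulk RNA fewer cells of a type and less RNA per cell cannot be told apart. As a check of the labelled tissue, the hepatocyte transcript *Alb* was at or above 32500 CPM in every liver. The 5 hepatocyte markers together were at 40200, 54900, 61300 and 41600 CPM in LWT livers and at 66200, 44400, 61900 and 63300 CPM in LΔRbfox2 livers, lowest in LWT replicates 1 and 4 and LΔRbfox2 replicate 2. Most of this sum was *Alb*, and the markers did not all share this order, since *Tat* was highest in LWT replicate 4 and lowest in LWT replicate 2, and *Hnf4a* was lowest in LΔRbfox2 replicate 3. *Apoa1* had the largest fold change of the hepatocyte markers (0.36, Benjamini-Hochberg adjusted p = 0.567, edgeR), which was 0.04 after correction for gene length and 0.19 without LWT replicate 1; the median of the 5 markers went from 0.25 to 0.013 with that correction. At an unadjusted p under 0.05, 0 of 4 pericentral, 0 of 4 periportal, 0 of 4 sinusoidal endothelial, 0 of 4 stellate and 0 of 3 tested cholangiocyte markers were counted in either direction, 1 of 5 Kupffer cell markers was lower (*Clec4f*) and 1 of 2 tested blood, fat and pancreas markers higher (*Hbb-bs*), beside 1.83% lower and 7.95% higher of all genes tested, and none of the lymphocyte markers had enough counts to be tested.

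Kupffer cell markers and blood transcripts were read in the same way. The 5 Kupffer cell markers together were at 62.2, 55.1, 91.7 and 52.6 CPM in LWT livers and at 61.8, 29.9, 54.5 and 41.6 CPM in LΔRbfox2 livers. *Clec4f*, the most abundant of them, was lower in every LΔRbfox2 liver than in every LWT liver (log2 fold change −0.73, Benjamini-Hochberg adjusted p = 0.504, edgeR), while the livers of the other 4 markers overlapped. Livers separated by genotype, in either direction, for 2.28% of all genes tested. The median log2 fold change of the Kupffer cell markers was −0.26, with −0.56 after correction for gene length and −0.49 to 0.053 with single livers left out, where it was positive only without LWT replicate 3, and that of the 3 tested cholangiocyte markers, all positive, was 0.37 (0.12 to 0.78 with single livers left out). The 6 blood, fat and pancreas markers together were at 195, 268, 187 and 131 CPM in LWT livers and at 360, 201, 516 and 693 CPM in LΔRbfox2 livers. Most of this sum was the haemoglobin transcript *Hbb-bs*, which has a near-identical copy (log2 fold change 1.38, Benjamini-Hochberg adjusted p = 0.504, edgeR; 0.85 after correction for gene length), and the pancreas marker *Prss2* had 0 counts in every liver. The part of these cell populations in the levels of the 8 genes was not tested.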

How the data were processed

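RNA was extracted from whole livers, enriched for poly(A) RNA and sequenced as paired-end reads. The authors aligned reads to GRCm38 with TopHat2 2.0.11, set for first-strand libraries, and obtained gene counts with featureCounts, which they deposited unnormalized. The featureCounts version and its strand and multi-mapping settings are not given in the sources used here. Columns were matched to livers by name. The labels give 12 weeks on diet, fewer than the methods text.

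Identifiers were matched to GENCODE M21 (45229 of 46078). The tests were run in edgeR 4.0.16 under R 4.3.3: filterByExpr (minimum count 10, minimum total 15), TMM factors, glmQLFit and glmQLFTest with genotype as the only term, and Benjamini-Hochberg adjustment with a threshold of 0.05. Standard errors and 95% intervals are from limma-voom (limma 3.58.1). A prior count of 2 was added for log2 CPM, and 3 counts corresponded to 0.0468 to 0.0929 CPM, a floor for counting error only. Permutation tests were exact and two-sided. Within each genotype no library was a copy of another (chi-square of at least 97.8 per degree of freedom for each such pair); pairs across genotypes were not compared in this way. Tests were tried on simulated data.

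Named genes were the 8 genes, *Rbfox2*, direct partners (*Mlx*, *Mlxip*, *Tkfc*, *Arrdc4*), the most changed and the most abundant gene of each list, list genes with an unadjusted p under 0.05, and the 3 genes most like each of the 8; some genes that this rule names are not reported here. *Malat1*, *Neat1*, *Nlrp6* and *Gcgr* were chosen after values were seen, and overlapping genes and *Slc2a4* and *Arrdc5* were named as such. The genes and lists were chosen with earlier results of these data known. Alternatives were DESeq2 1.42.0 as test or for size factors, limma-voom, upper-quartile factors, Mup genes left out, no filter or at least 10 counts in every liver, gene length correction (lowess, span 0.3), a replicate block, and each liver left out. Figures used Python 3.11.15 and matplotlib 3.10.9.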

Additional observations from a re-analysis of the deposited data

Results flagged for a closer look

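In 62 groups of 4 livers, 31 genes in both genotypes, a liver was looked for that stood further from the rest of its group than the spread of the rest allows; 2 were found, where chance gives about 1 in 20 groups, or 3.1. *Pklr* in LΔRbfox2 replicate 2 was at 32.8 CPM, while the other LΔRbfox2 livers were between 17.9 and 19.7 CPM. *Srebf1* in LWT replicate 4 was at 55.6 CPM, while the other LWT livers were between 13 and 19.8 CPM. The cause of either value was not tested.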

How the results depend on the processing

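The number of genes past the adjusted threshold was 0 in the edgeR test and under every alternative except the DESeq2 test, where it was 10; in edgeR it was also 0 with any single liver left out. *Rbfox2* passed the threshold only with the DESeq2 test (log2 fold change −1.82, adjusted p = 0.000199, against a range of 0.000199 to 0.91 over its alternatives), and its value was between −2.09 and −1.64 with single livers left out. None of the 8 genes passed under any alternative. Of their 72 values under other settings 71 kept their sign, and *Slc2a2* turned to 0.072 with the gene length correction; of 64 values with a liver left out 60 kept it, with ranges of −0.16 to 0.083 for *Slc2a2* and −0.19 to 0.020 for *Txnip*. With single livers left out *Slc2a5* ranged from 0.041 to 0.62, *Slc2a8* from −0.38 to −0.092, *Khk* from 0.33 to 0.68, *Gckr* from −0.52 to −0.14, *Mlxipl* from −1.06 to −0.21 and *Pklr* from −0.41 to −0.069.

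Of the other named genes, 192 of 207 values under other settings and 172 of 184 with a liver left out kept sign and side of the threshold. *Scd1* turned to −0.0034 with DESeq2 and with DESeq2 size factors, −0.11 with limma-voom, −0.037 with upper-quartile factors, −0.023 without Mup genes, −0.032 without a filter and −0.12 with the replicate block. Of the cell type markers, *Cyp2e1* (0.029 in the edgeR test) turned to −0.015 with upper-quartile factors, −0.006 without Mup genes, −0.0048 without a filter and −0.14 with the gene length correction. *Tkfc* turned to −0.024 with limma-voom and −0.02 with the replicate block, and the endothelial marker *Clec4g* to 0.0015 with the replicate block. With single livers left out, the ranges that crossed 0 were −0.44 to 0.24 for *Scd1*, −0.16 to 0.19 for *Cyp2e1*, −0.21 to 0.16 for *Tkfc*, −0.19 to 0.15 for *Clec4g*, −0.13 to 0.33 for the pericentral marker *Oat* and −0.14 to 0.27 for the cholangiocyte marker *Sox9*. Medians of lists moved as well: that of alpha-arrestins and the thioredoxin system (0.11) was −0.021 with the gene length correction and between −0.018 and 0.24 with single livers left out, and that of hepatocyte markers was 0.013 with the gene length correction. Medians of the other lists ranged, with single livers left out, from −0.21 to −0.069 for the 8 genes, 0.12 to 0.3 for fructose breakdown, −0.15 to −0.0077 for sugar transporters, −0.22 to −0.054 for hexokinases and glycolysis, −0.013 to 0.14 for *Mlx* and *Mlxip*, −0.086 to 0.066 for ChREBP targets and −0.3 to −0.049 for fasting and insulin responsive genes. The cholangiocyte median was 0.16 with the gene length correction. The cause of these turns was not tested.

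Same-numbered livers are different animals, and the labels do not say that they are paired. Their deviations from the genotype means had correlations of 0.13, −0.61, 0.12 and −0.51. With 54.1% of the variance on the first principal component, these correlations cannot show whether the numbers pair the livers. With the replicate block 0 genes passed the threshold and 335 had an unadjusted p under 0.05 in edgeR. With it *Mlxipl* was −0.51, as against −0.50 in limma-voom without the block, and *Rbfox2* −1.88. By CPM without division by length, *Slc2a2* ranked 2, *Mlxipl* 3, *Txnip* 4 and *Gckr* 5. Intervals of the 8 genes included 0 (for *Mlxipl* −1.68 to 0.69).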
